A study of Mus musculus with 101 samples.

Results

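Copy number of 10 genes of cell adhesion and epithelial-mesenchymal transition was read in 98 mouse mammary tumours and 3 spleens. The genes were chosen by symbol, with earlier results of these data known. They were the cadherins Cdh1, Cdh2 and Cdh3, the splicing regulator Esrp1 and the intermediate filament gene Vim. The others were the transcription factors Snai1, Snai2, Twist1, Zeb1 and Zeb2. All 10 were found among the 43513 gene symbols measured. The study set tumours with the Brca1 p.L1363P variant, sorted by histology, beside tumours of other genotypes. The question here was whether copy number of these genes followed sarcomatoid histology within a genotype.

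Tumours labelled KB1(L1363P)P comprised 12 sarcomatoid tumours, 9 carcinosarcomas and 3 adenocarcinomas. KB1P tumours comprised 1 sarcomatoid tumour, 1 carcinosarcoma and 29 adenocarcinomas, and all 25 KB2P tumours were adenocarcinomas. KP tumours comprised 10 sarcomatoid tumours, 2 carcinosarcomas and 6 adenocarcinomas. In the usual naming of these conditional models keratin-14-driven Cre deletes Trp53 in KP, Brca1 and Trp53 in KB1P, and Brca2 and Trp53 in KB2P epithelium. KB1(L1363P)P combines the Brca1 variant with loss of Trp53, which all 4 genotypes share. The labels give only the genotype code, the histologic type and a percentage of epithelial cells. That percentage was 0 in every sarcomatoid tumour, 2 to 98 in the KB1(L1363P)P carcinosarcomas and 100 in every adenocarcinoma. Nothing in the labels says whether tumours came from separate animals, and a p-value here is measured against the spread among the tumours at hand.

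Epithelial-mesenchymal transition is the programme by which epithelial cells lose their junctions and take up mesenchymal features. Cdh1 encodes E-cadherin, the calcium-dependent adhesion protein of epithelial junctions, whose gene is directly repressed by the Snail and Zeb factors. In breast tissue the programme is known from metaplastic and sarcomatoid cancers, in which E-cadherin is usually low and vimentin high. These data give the copy number of the genes and say nothing of their expression.

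The value used throughout is the segmented log2 ratio, the log2 of read depth over the authors' reference after smoothing along the chromosome, called the segment value here. A whole-number copy score of 2 is neutral, and gain was scored from a segment value of 0.32 upwards and loss from -0.42 downwards. Because the DNA came from bulk tumours, fewer altered cells and a smaller change per cell cannot be told apart. Spleens had no altered gene, and the segment values of all 10 genes there lay within 0.01 of 0. Noise between neighbouring genes ranged over 0.0600 to 0.147 in tumours. Brca1 averaged 0.03 in KB1(L1363P)P, 0.14 in KB1P, -0.07 in KB2P and -0.03 in KP tumours, and Trp53 0.01, 0.09, -0.05 and 0.05 in the same order. Brca2 averaged 0.11, 0.29, 0.40 and 0.04 in that order. A deletion within a gene can be missed in bins of 20 kb, and the labels do not give its extent. These values therefore do not check the genotypes.

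Some libraries stood apart from their labels or resembled each other. KB2P adenocarcinoma replicates 10 and 12 had near-identical profiles (r of segment values 0.986). Their residuals correlated at 0.400, above the median of 0.268 for all pairs. Whether they are separate tumours was not tested, and both were kept and counted. KB1(L1363P)P sarcomatoid replicates 2 and 7 (r of segment values 0.954, residuals 0.290) and 8 and 11 (0.936, residuals 0.255) were also alike, with residuals near that median, and were kept. A KB1P adenocarcinoma named L1363P in its description, and it stayed in the group its genotype label names; 10 further KB1P tumours carry the title prefix KB1PM. All 12 KB1(L1363P)P sarcomatoid tumours were in library series 5289, the number that opens the sample descriptions, as were 6 of 9 carcinosarcomas and 2 of 3 adenocarcinomas. All 10 KP sarcomatoid tumours were in series 5750, which held no other KP tumour, so series and histology cannot be told apart in KP.

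The size of all copy-number changes also moved with histology. The mean size of the segment value over autosomal genes was 0.111 ± 0.0275 in KB1(L1363P)P sarcomatoid tumours (SD, n = 12), against 0.120 ± 0.0513 in carcinosarcomas (SD, n = 9; two-sided exact permutation adjusted p = 0.620). The adenocarcinomas of that genotype had 0.242 ± 0.111 (SD, n = 3), and the sarcomatoid tumours differed from them by -0.131 (exact permutation adjusted p = 0.00330). In KP the means were 0.0760 ± 0.0171 in sarcomatoid tumours (SD, n = 10) and 0.182 ± 0.0847 in adenocarcinomas (SD, n = 6), a difference of -0.106 (exact permutation adjusted p = 0.00330). The sarcomatoid tumours had the flatter profiles in both genotypes, and how far this enters the gene differences below was not tested. The heat map of the 10 genes in all samples shows this flatness across the gene set. Of the 10 genes in all tumours of a group, 2.5% of scores were altered in KB1(L1363P)P sarcomatoid tumours, 11.1% in carcinosarcomas and 30% in adenocarcinomas. Over all genes the shares in these groups were 2.37%, 7.67% and 23.6%. Counting instead segment values beyond 0.1 in size, the shares for the 10 genes were 42.5% in sarcomatoid tumours, 33.3% in carcinosarcomas and 43.3% in adenocarcinomas, so carcinosarcomas were lowest by that count. The share over all genes was not taken at that threshold, so the order cannot be read as particular to these genes. Cdh1 and Cdh3, which share their values, are counted separately in these shares. The share of altered scores was 39.0% in KB1P and 37.2% in KB2P adenocarcinomas, beside 38.7% and 37.0% over all genes. In KP it was 2% in sarcomatoid tumours, 30% in carcinosarcomas and 13.3% in adenocarcinomas, beside 0.815%, 16.3% and 16.4% over all genes. The KP carcinosarcomas were 2 tumours, and over all genes their share was close to that of the adenocarcinomas.

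**Figure D1:**
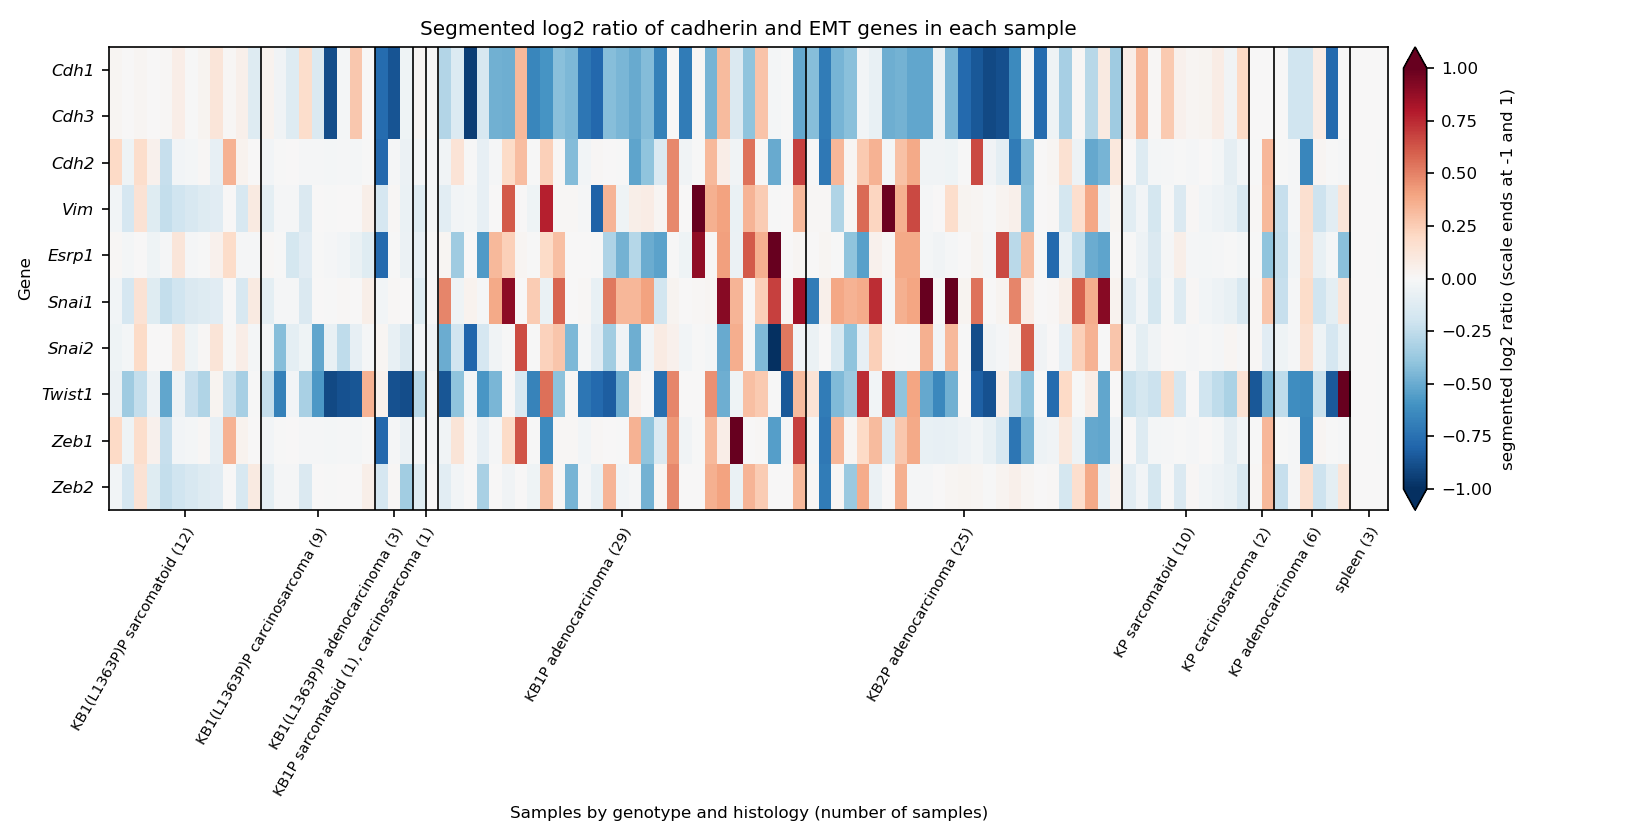
Segment value (log2) of the 10 genes (rows) in all 98 tumours and 3 spleens (columns, ordered by group), on a colour scale from -1 to 1. Sarcomatoid tumours are pale in most rows, Cdh1 and Cdh3 are blue in most KB1P and KB2P adenocarcinomas, and the spleens are blank.

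In KB1(L1363P)P, sarcomatoid tumours had higher segment values than adenocarcinomas for Cdh1, Cdh3, Cdh2, Zeb1 and Esrp1, and higher values than carcinosarcomas for Snai2. Thus 5 of 10 genes passed against adenocarcinomas, where 36.6% of all genes passed, 35.4% higher and 1.22% lower (limma with Benjamini-Hochberg adjustment, called at an adjusted p under 0.05), and 1 of 10 passed against carcinosarcomas, where 5.21% of all genes passed. In KP 0 of 10 passed between sarcomatoid tumours and adenocarcinomas, beside 2.99% of all genes. With sarcomatoid tumours of both genotypes set against their other tumours, 3 of 10 passed, Cdh1, Cdh3 and Snai2, beside 19% of all genes (14.6% higher, 4.35% lower). The difference between the 2 genotypes in the sarcomatoid minus adenocarcinoma contrast passed for 0 of 10, beside 2.04% of all genes. The called shares were of the order of the background in each comparison. The 5 calls rest on 3 chromosomes, since Cdh1 and Cdh3 lie together and Cdh2 and Zeb1 share chromosome 18. The KB1(L1363P)P comparisons share the same 12 sarcomatoid tumours and are not independent. The median difference between KB1(L1363P)P sarcomatoid tumours and adenocarcinomas was 0.31 over the 10 genes and 0.15 over all genes. Between sarcomatoid tumours and carcinosarcomas the medians were 0.06 and 0.03 in the same order, and in KP 0.06 and 0.04.

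**Figure D2:**
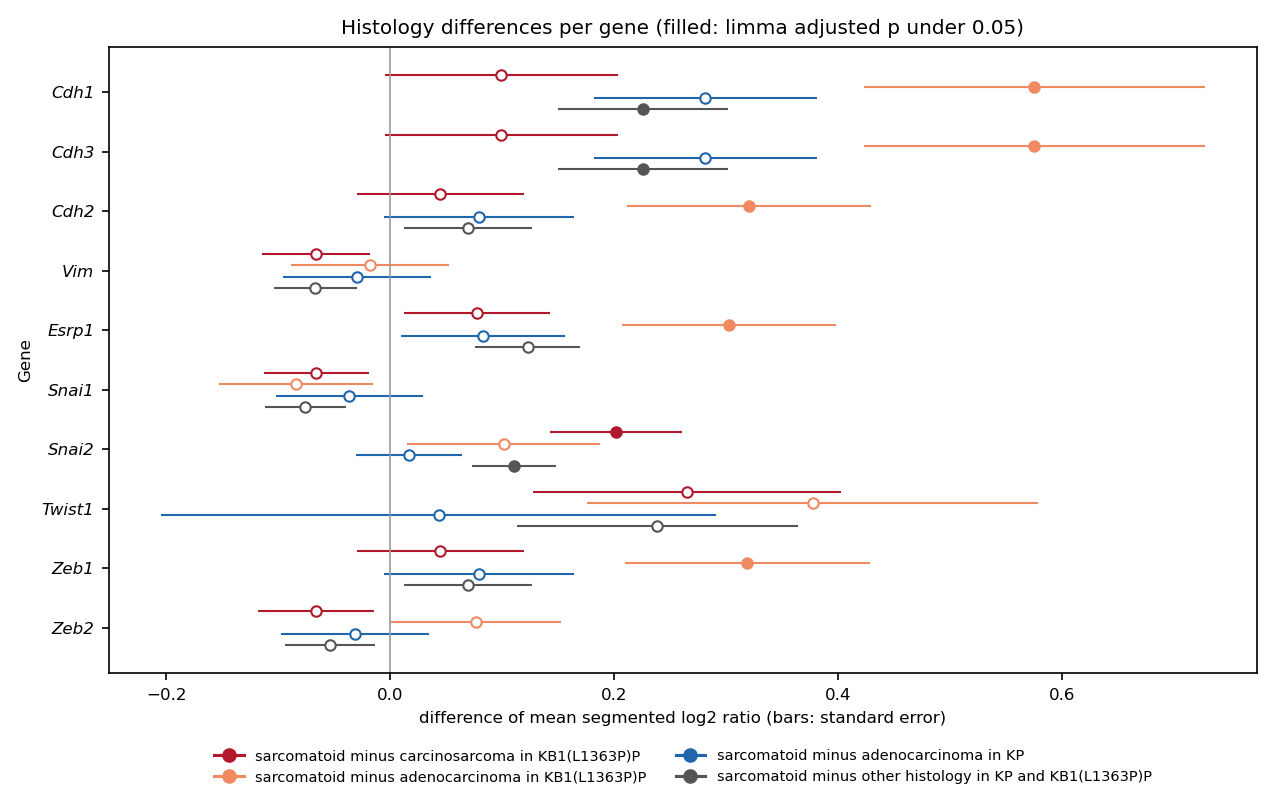
Difference in segment value (log2, x axis) for each of the 10 genes (rows) in 4 histology comparisons, with lines of 1 SE and filled points where the limma adjusted p was under 0.05. Cdh1 and Cdh3 lie furthest to the right in KB1(L1363P)P sarcomatoid tumours minus adenocarcinomas, at 0.58, and no KP point is filled.

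Cdh1 and Cdh3 lie side by side on chromosome 8 (mm10 positions from RefSeq GRCm38.p6, chr8:106603350-106670247 and chr8:106510852-106556911), with a gap of 0.0464 Mb. Cdh3 encodes P-cadherin, the cadherin of myoepithelial and basal cells. Their segment values were identical in 98 of 98 tumours, so each Cdh1 value is also that of Cdh3 and the pair counts as 1 measurement. Cdh1 was the member most often lost, with a loss score in 36 tumours and a gain score in 1.

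Cdh1 stayed near neutral in KB1(L1363P)P sarcomatoid tumours, with a lowest segment value of -0.13, a median of 0.02 and a highest of 0.12 (mean 0.02, SD 0.06, n = 12). In the carcinosarcomas Cdh1 had 0.04, -0.03, -0.13, 0.18, -0.15, -0.89, -0.02, 0.27 and 0.01 for replicates 1 to 9. The 3 adenocarcinomas had Cdh1 at -0.77, -0.86 and -0.04. Replicate 6 among the carcinosarcomas and adenocarcinoma replicates 1 and 2 carried the loss, and the third adenocarcinoma lay inside the sarcomatoid range. The lone KB1P sarcomatoid tumour had 0.02 and the lone KB1P carcinosarcoma -0.01.

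In KP tumours Cdh1 ranged over -0.04, 0.05 and 0.33 (lowest, median, highest) in sarcomatoid tumours, and the single gain score of the series was here. Cdh1 had 0.0011 and 0.0015 in the 2 KP carcinosarcomas. The KP adenocarcinomas had Cdh1 at 0.01, -0.20, -0.20, 0.08, -0.78 and 0.00, so that only replicate 5 was scored as lost and the groups overlapped. Adenocarcinomas of the other genotypes lost Cdh1 often. In KB1P adenocarcinomas its lowest, median and highest values were -0.94, -0.43 and 0.32, with loss scored in 17 of 29 tumours. In KB2P adenocarcinomas they were -0.90, -0.46 and 0.09, with loss scored in 15 of 25.

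Over all genotypes Cdh1 loss was scored in 0 of 23 sarcomatoid tumours, 1 of 12 carcinosarcomas and 35 of 63 adenocarcinomas. Lowering the threshold to a segment value of -0.1 gave 1 of 23 sarcomatoid tumours, 3 of 12 carcinosarcomas and 45 of 63 adenocarcinomas. Most of those adenocarcinomas were KB1P or KB2P tumours, so these counts mix genotype with histology. Altered scores over all genes were rare in sarcomatoid tumours too, 2.37% in KB1(L1363P)P and 0.815% in KP. They were 38.7% in KB1P and 37.0% in KB2P adenocarcinomas, gains and losses together. The near absence of loss in sarcomatoid tumours can therefore not be read as particular to Cdh1.

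Within genotypes the differences of Cdh1 were tested with limma over all genes. In KB1(L1363P)P Cdh1 was higher in sarcomatoid tumours than in adenocarcinomas by 0.58 (SE 0.15, limma adjusted p = 0.00706). This call was lost without adenocarcinoma replicate 1 (adjusted p = 0.0750) or replicate 2 (adjusted p = 0.0562). With spreads estimated per group the adjusted p was 0.348. Against carcinosarcomas Cdh1 differed by 0.10 (SE 0.10, limma adjusted p = 0.580). In KP the difference between sarcomatoid tumours and adenocarcinomas was 0.28 (SE 0.10, limma adjusted p = 0.177). The difference in KB1(L1363P)P exceeded that in KP by 0.29 (SE 0.19, limma adjusted p = 0.379), which did not pass. Sarcomatoid tumours of both genotypes against their other tumours differed by 0.23 (SE 0.08, limma adjusted p = 0.0341), and by 0.22 without KB1(L1363P)P sarcomatoid replicate 9 (adjusted p = 0.0506).

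The losses of Cdh1 were mostly wide. Relative to the median of chromosome 8 in the same tumour, Cdh1 was lower by 0.3 or more in 10 tumours and higher by 0.3 or more in 0. The carcinosarcoma replicate 6 loss spanned 37.6 Mb and 558 genes. The narrowest of the 10 was in KB1P adenocarcinoma replicate 9, where a segment of 6.54 Mb with 166 genes had a value of -0.59. With the chromosome median subtracted, the sarcomatoid and adenocarcinoma groups of KB1(L1363P)P differed by 0.02 for Cdh1 (adjusted p = 1), so the difference was one of the chromosome 8 level.

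Cdh2, which encodes N-cadherin, the cadherin of neural and mesenchymal cells, and Zeb1, a zinc finger repressor of Cdh1, both lie on chromosome 18 (chr18:16588877-16809246 and chr18:5591327-5775468). They are 10.8 Mb apart. Their segment values were the same in 67 of 98 tumours, including every KB1(L1363P)P sarcomatoid tumour and carcinosarcoma and every KP tumour. In KB1(L1363P)P sarcomatoid tumours Cdh2 had a lowest value of -0.23, a median of 0.01 and a highest of 0.35, with 1 gain score. In the carcinosarcomas it stayed between -0.03 and 0.01. The adenocarcinomas had Cdh2 at -0.79, -0.02 and -0.06.

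Cdh2 was higher in KB1(L1363P)P sarcomatoid tumours than in adenocarcinomas by 0.32 (SE 0.11, limma adjusted p = 0.0324), and so was Zeb1 by 0.32 (SE 0.11, adjusted p = 0.0324). Adenocarcinoma replicate 1 alone carried the loss. Without it Cdh2 differed by 0.07 (adjusted p = 0.646) and Zeb1 by 0.07 (adjusted p = 0.656). In KP, Cdh2 lay between -0.13 and 0.01 in sarcomatoid tumours, and only adenocarcinoma replicate 3, at -0.65, was outside -0.02 to 0.02 among the adenocarcinomas. The KP difference of 0.08 (SE 0.08, limma adjusted p = 0.740) did not pass.

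Zeb1 and Cdh2 parted in adenocarcinomas of KB1P and KB2P. They differed by 0.1 or more in 9 tumours, 6 of them KB1P and 3 KB2P. In KB1P adenocarcinoma replicate 24 Zeb1 had a segment value of 1.78 and a copy score of 7 on a segment of 0.533 Mb that held 4 genes. It was the narrowest segment and the highest value of any of the 10 genes in a tumour. Zeb1 was scored as gained in 6 and lost in 2 of 29 KB1P adenocarcinomas, and as gained in 2 and lost in 5 of 25 KB2P adenocarcinomas.

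Esrp1, a splicing regulator that maintains epithelial isoforms of many transcripts, lies on chromosome 4 (chr4:11331933-11386783). It had a lowest value of -0.04, a median of -0.0048 and a highest of 0.18 in KB1(L1363P)P sarcomatoid tumours. In carcinosarcomas the values were -0.18, -0.03 and 0.01. The adenocarcinomas had Esrp1 at -0.78, -0.0075 and -0.06. As for Cdh2, only adenocarcinoma replicate 1 lay far from the sarcomatoid tumours.

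The Esrp1 difference of 0.30 between KB1(L1363P)P sarcomatoid tumours and adenocarcinomas (SE 0.10, limma adjusted p = 0.0227) was 0.05 without that tumour (adjusted p = 0.608). In KP, Esrp1 lay between -0.14 and 0.06 in sarcomatoid tumours. The KP adenocarcinomas had Esrp1 at -0.24, -0.03, 0.15, -0.08, -0.02 and -0.41, with no scored change (difference 0.08, SE 0.07, limma adjusted p = 0.628). In KB1P adenocarcinomas Esrp1 was gained in 6 and lost in 4 of 29. Replicate 27 there held a narrow gain with a segment value of 1.37, a copy score of 5 and 29 genes over 1.36 Mb, in a tumour whose chromosome 4 median was -0.48.

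Snai1, the zinc finger factor Snail and a direct repressor of Cdh1, lies near the far end of chromosome 2 (chr2:167538195-167542814). It was the member most often gained, in 25 tumours against 1 with loss. All 25 gains were in adenocarcinomas, 12 of 29 KB1P and 13 of 25 KB2P, and 0 of 23 sarcomatoid tumours and 0 of 12 carcinosarcomas had one. The 6 KP and 3 KB1(L1363P)P adenocarcinomas also had 0 gains, so these counts mix genotype with histology. Over all genes 38.7% of scores were altered in KB1P and 37.0% in KB2P adenocarcinomas. The sarcomatoid tumours had 2.37% in KB1(L1363P)P and 0.815% in KP, so their lack of gains cannot be read as particular to Snai1. The share of gains alone over all genes was not taken. The bases upstream of its start are shown because Snail, Zeb and Twist factors bind short sequences called E-boxes, with the E-box matches in capitals; Twist1 is given beside it as the member with the narrow gain in KP. Both are from RefSeq, GRCm38.p6, forward strand, at chr2:167537945-167538194 and chr12:33957421-33957670.
Snai1: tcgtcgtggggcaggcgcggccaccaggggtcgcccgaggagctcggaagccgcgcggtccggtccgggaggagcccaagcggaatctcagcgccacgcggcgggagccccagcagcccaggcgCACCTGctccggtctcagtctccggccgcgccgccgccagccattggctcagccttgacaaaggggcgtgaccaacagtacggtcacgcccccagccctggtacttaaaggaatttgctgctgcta
Twist1: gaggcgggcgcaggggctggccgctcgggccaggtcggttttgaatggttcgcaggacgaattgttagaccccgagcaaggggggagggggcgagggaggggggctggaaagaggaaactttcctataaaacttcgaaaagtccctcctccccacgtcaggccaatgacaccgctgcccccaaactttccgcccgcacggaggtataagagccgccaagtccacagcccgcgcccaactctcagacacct
The motif CAGGTG or CACCTG was searched on both strands, as was the wider CANNTG that contains it. The Snai1 window had 1 match, shared by both searches, and the Twist1 window had 0. Of all 32817 windows of 250 bases, 17.2% held CAGGTG or CACCTG and 66.2% held CANNTG. Promoter windows were matched for 4 of the 10 genes. These data hold no measure of binding.

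Zeb2, a repressor related to Zeb1, and Vim, which encodes vimentin, the filament protein of mesenchymal cells, lie on the same chromosome (chr2:44983512-45117442 and chr2:13574311-13582826). Snai1 is 122 Mb from Zeb2. The 3 genes had 1 common level in most sarcomatoid tumours, since Snai1 and Zeb2 shared their value in 11 of 12 KB1(L1363P)P and 9 of 10 KP sarcomatoid tumours. Over all tumours Snai1 and Zeb2 agreed in 47 of 98, and Zeb2 and Vim in 73.

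Among KB1(L1363P)P sarcomatoid tumours Snai1 had a lowest value of -0.24, a median of -0.13 and a highest of 0.15. In carcinosarcomas the values were -0.15, -0.0018 and 0.06, and the adenocarcinomas had Snai1 at -0.03, 0.01 and 0.0021. The sarcomatoid range covered all tumours of the other histologies. Snai1 differed by -0.07 from carcinosarcomas (SE 0.05, limma adjusted p = 0.509) and by -0.08 from adenocarcinomas (SE 0.07, adjusted p = 0.350). In KP sarcomatoid tumours Snai1 lay between -0.17 and 0.01, within the adenocarcinoma range of -0.23 to 0.18 (difference -0.04, SE 0.07, limma adjusted p = 0.923). Vim differed by -0.07 and -0.02 in the same KB1(L1363P)P comparisons, and Zeb2 by -0.07 and 0.08, without a call.

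In adenocarcinomas Snai1 averaged 0.24 in KB1P (SD 0.32, n = 29), 0.29 in KB2P (SD 0.41, n = 25) and -0.04 in KP (SD 0.17, n = 6). It stood at least 0.3 above its chromosome median in 28 tumours, 14 KB1P, 13 KB2P and 1 KB1(L1363P)P adenocarcinoma. The highest Snai1 values, 1.09 and 1.16, belonged to the near-identical KB2P replicates 10 and 12, on a segment of 16.0 Mb with 208 genes. Vim reached 1.48 in KB1P adenocarcinoma replicate 21, on 11.2 Mb with 149 genes, and was gained in 9 of 29 KB1P and 5 of 25 KB2P adenocarcinomas. Zeb2 was gained in 6 and 3 of these.

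Snai2, the factor Slug, which marks basal mammary cells and also represses Cdh1, lies on chromosome 16 (chr16:14705852-14709395). In KB1(L1363P)P sarcomatoid tumours it had a lowest value of -0.04, a median of 0.0016 and a highest of 0.19 (mean 0.03, n = 12). In the carcinosarcomas Snai2 had -0.02, -0.42, -0.10, -0.04, -0.52, -0.08, -0.25, -0.08 and -0.01 for replicates 1 to 9. The adenocarcinomas had 0.02, -0.08 and -0.15. All 9 carcinosarcomas were below 0, but 3 of them lay inside the sarcomatoid range, and the scored losses were in replicates 2 and 5.

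Snai2 was higher in KB1(L1363P)P sarcomatoid tumours than in carcinosarcomas by 0.20 (SE 0.06, limma adjusted p = 0.0407). The call was held in 15 of 33 other settings, with an adjusted p over 0.05 when any of 8 sarcomatoid tumours (replicates 3, 4, 5, 6, 8, 9, 10 or 11) or carcinosarcoma replicate 2, 5 or 7 was left out. In library series 5289 alone the difference was 0.23 (adjusted p = 0.0550). The segment covered the whole chromosome in 8 of the 9 carcinosarcomas, and with the chromosome median subtracted the difference was 0. Against adenocarcinomas Snai2 differed by 0.10 (SE 0.09, limma adjusted p = 0.367). In KP, Snai2 lay between -0.10 and 0.02 in sarcomatoid tumours and between -0.17 and 0.15 in adenocarcinomas (difference 0.02, SE 0.05, limma adjusted p = 0.936). In KB1P adenocarcinomas Snai2 was lost in 7 and gained in 3 of 29, and replicate 27 had the lowest value of any member, -1.28, on 6.30 Mb with 128 genes. In KB2P adenocarcinomas Snai2 was lost in 1 and gained in 4 of 25.

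Twist1, a helix-loop-helix factor of mesoderm that drives the transition in mammary cells, lies on chromosome 12 (chr12:33957671-33959831). It was the member most often altered outside KB1P and KB2P. Loss of Twist1 was scored in 1 of 23 sarcomatoid tumours, 7 of 12 carcinosarcomas and 25 of 63 adenocarcinomas over all genotypes. Of these 25 adenocarcinomas 11 were KB1P and 9 KB2P tumours, so the counts mix genotype with histology. Over all genes altered scores were 2.37% in sarcomatoid tumours, 7.67% in carcinosarcomas and 23.6% in adenocarcinomas of KB1(L1363P)P. In KP they were 0.815%, 16.3% and 16.4% in that order. Below a segment value of -0.1 the counts for Twist1 were 15 of 23, 9 of 12 and 34 of 63, so its shallow decreases were also common in sarcomatoid tumours.

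Twist1 in KB1(L1363P)P sarcomatoid tumours had a lowest value of -0.52, a median of -0.22 and a highest of 0.03, with 11 of 12 below 0 and 1 scored as lost. In the carcinosarcomas Twist1 had -0.24, -0.67, -0.03, -0.33, -0.58, -0.91, -0.87, -0.85 and 0.35 for replicates 1 to 9. The adenocarcinomas had 0.04, -0.87 and -0.89. Loss was scored in 5 of 9 carcinosarcomas and 2 of 3 adenocarcinomas, and the ranges overlapped. Twist1 differed by 0.26 from carcinosarcomas (SE 0.14, limma adjusted p = 0.360) and by 0.38 from adenocarcinomas (SE 0.20, adjusted p = 0.161), and neither passed.

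Twist1 stood at least 0.3 above the chromosome 12 median in 14 of 98 tumours and at least 0.3 below it in 5, and 4 of these 19 tumours were KB1(L1363P)P. In KB1(L1363P)P carcinosarcoma replicates 3 and 9 and adenocarcinoma replicate 1, Twist1 had -0.03, 0.35 and 0.04, while the chromosome 12 medians were -0.75, -0.64 and -0.77. In each of these the first part of the chromosome, including Twist1, formed a segment of 36.3, 44.8 or 54.5 Mb of its own. Adenocarcinoma replicate 2 went the other way, with Twist1 at -0.87 on a segment of 59.1 Mb against a chromosome median of -0.45. Without adenocarcinoma replicate 1 the Twist1 difference from adenocarcinomas was 0.68 (limma adjusted p = 0.0337), and it passed in only this 1 of 27 other settings. The chromosome 12 median itself averaged -0.24 in sarcomatoid tumours, -0.65 in carcinosarcomas and -0.70 in adenocarcinomas of this genotype.

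In KP, Twist1 had a lowest value of -0.31, a median of -0.19 and a highest of 0.19 in sarcomatoid tumours, with no scored change. Both KP carcinosarcomas had lost Twist1, at -0.85 and -0.45. The KP adenocarcinomas had Twist1 at -0.25, -0.62, -0.64, -0.22, -0.84 and 1.59. The last, replicate 6, held Twist1 on a segment of 1.04 Mb with 15 genes and a copy score of 6, in a chromosome with a median of -0.62. Sarcomatoid tumours and adenocarcinomas of KP differed by 0.04 for Twist1 (SE 0.25, limma adjusted p = 0.973). With both genotypes pooled, sarcomatoid tumours differed from the others by 0.24 (SE 0.13, limma adjusted p = 0.150), and by 0.35 without KP adenocarcinoma replicate 6 (adjusted p = 0.00682). That exclusion was added after the data were seen, and Twist1 passed in only this 1 of 51 other settings.

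**Figure D3:**
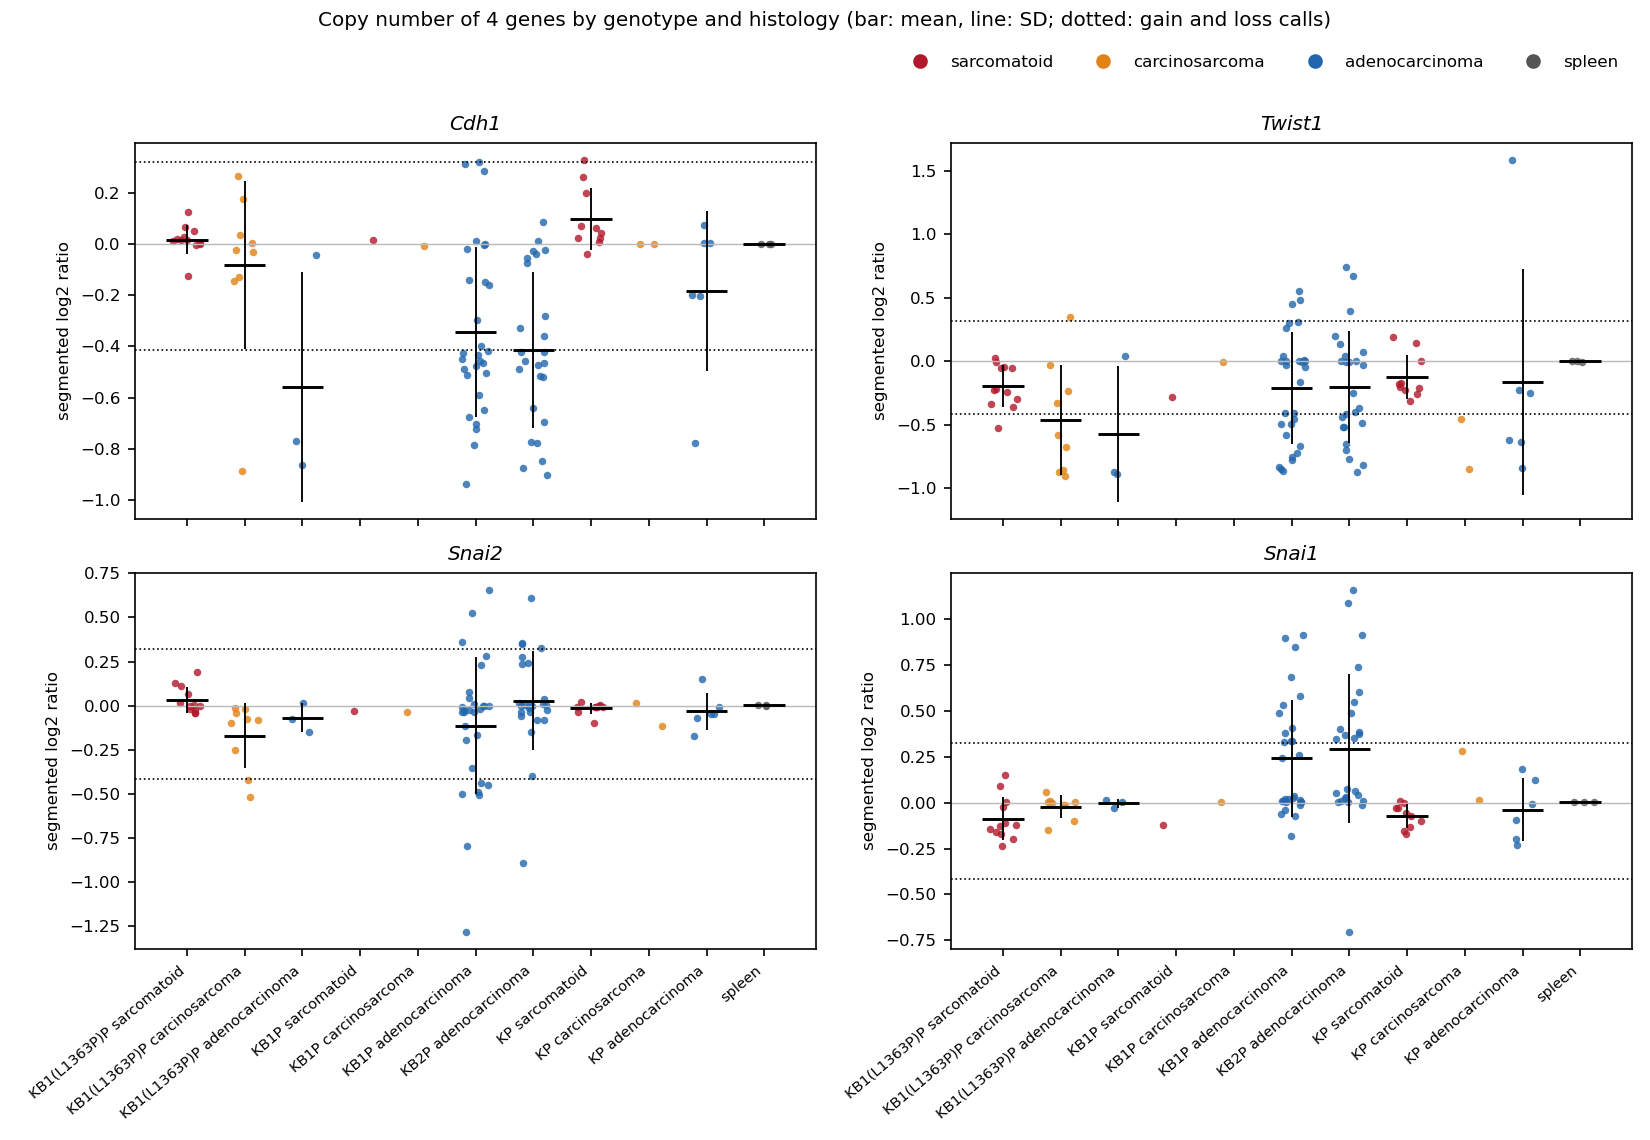
Segment value (log2) of Cdh1, Twist1, Snai2 and Snai1 in each tumour (points) by group, with the group mean (bar) and SD (line), and dotted lines at the gain and loss thresholds of 0.32 and -0.42. Snai1 gains are seen in KB1P and KB2P adenocarcinomas, and KP adenocarcinoma replicate 6 stands alone at 1.59 for Twist1.

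The narrow gains of Twist1, Zeb1 and Esrp1 were each set against their neighbours within 10 Mb, in 168, 118 and 136 genes. In KP adenocarcinoma replicate 6 the unsegmented log2 ratio of the Twist1 neighbourhood had its highest value, 2.18, at Twist1 itself. Around Zeb1 in KB1P adenocarcinoma replicate 24 the highest segment value was 2.06, above that of Zeb1. Around Esrp1 in KB1P adenocarcinoma replicate 27 the highest segment value was the 1.37 of the Esrp1 segment. These 3 events were chosen by their values and are given as a description.

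**Figure D4:**
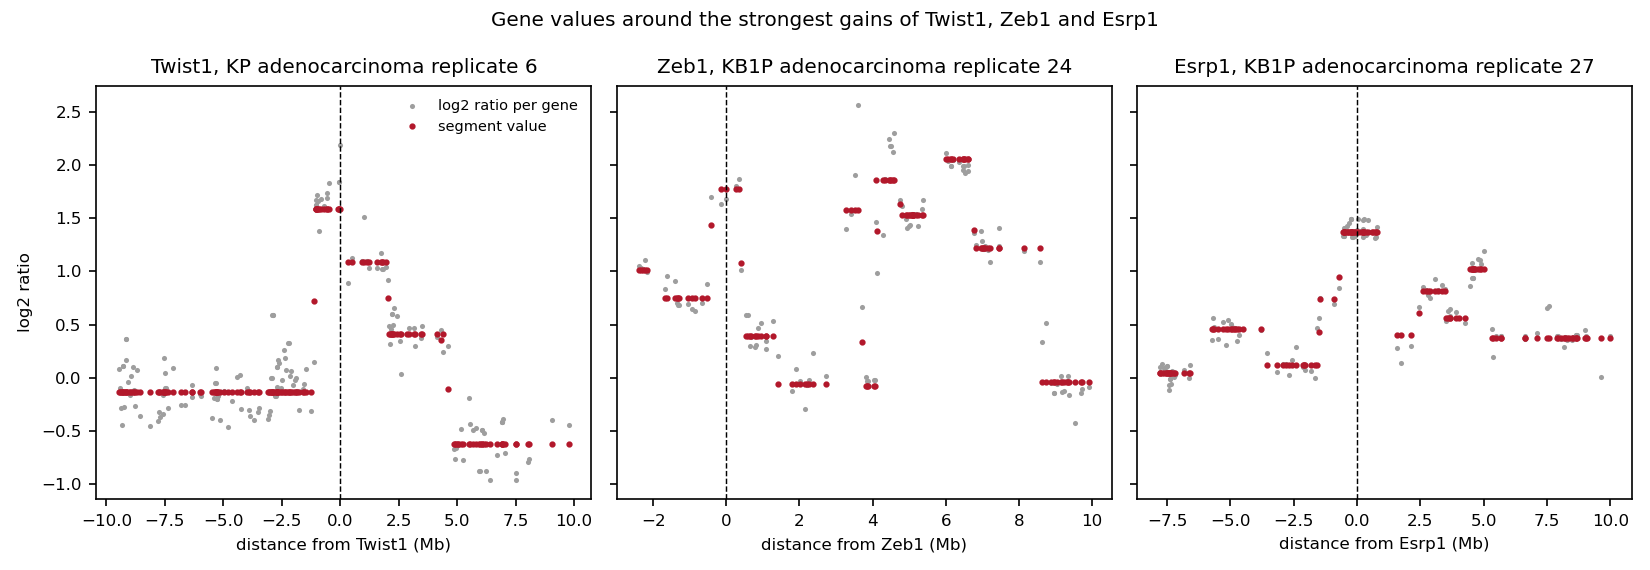
Log2 ratios (grey points) and segment values (red points) of genes within 10 Mb (x axis, distance from the named gene in Mb) of Twist1, Zeb1 and Esrp1, each in the tumour with its highest value. Each named gene sits on a narrow raised segment, at 1.59 for Twist1, 1.78 for Zeb1 and 1.37 for Esrp1.

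The share of epithelial cells gave a second reading of histology within KB1(L1363P)P. Over all 24 tumours, Cdh1 and Cdh3 fell with that share, with a slope of -0.38 per 100 percentage points (SE 0.11, limma adjusted p = 0.0357), and 2 of 10 genes passed, beside 15.1% of all genes (1.46% rising, 13.6% falling). The slope was -0.31 without adenocarcinoma replicate 1 (adjusted p = 0.0565) and -0.29 without replicate 2 (adjusted p = 0.0633). Twist1 had a slope of -0.36 (SE 0.14, adjusted p = 0.0614) and Snai2 of -0.17 (SE 0.07, adjusted p = 0.0605), neither past the threshold. Without adenocarcinoma replicate 1 these slopes were -0.45 for Twist1 (adjusted p = 0.0439) and -0.20 for Snai2 (adjusted p = 0.0471). Each of these slopes passed in only this 1 of 11 other settings. Esrp1 had -0.17 (SE 0.07, adjusted p = 0.0775) and Snai1 0.10 (SE 0.05, adjusted p = 0.0994).

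Among the 9 carcinosarcomas alone 0 of 10 genes passed, beside 1.8% of all genes, although 4825 genes had an unadjusted p under 0.05. The Cdh1 slope there was -0.35 per 100 points (SE 0.27, limma adjusted p = 0.646), and the loss in replicate 6 stood at 95% epithelial cells. Snai1 had the slope with the smallest error relative to its size, 0.14 (SE 0.04, limma adjusted p = 0.117), with Zeb2 and Vim at 0.13 (SE 0.04, adjusted p = 0.117 for both). Centring each tumour on its autosomal median gave a Snai1 slope of 0.14 with an adjusted p of 0.0457, and the same p for Zeb2 and Vim. Each of these genes passed in 2 of 17 other settings.

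**Figure D5:**
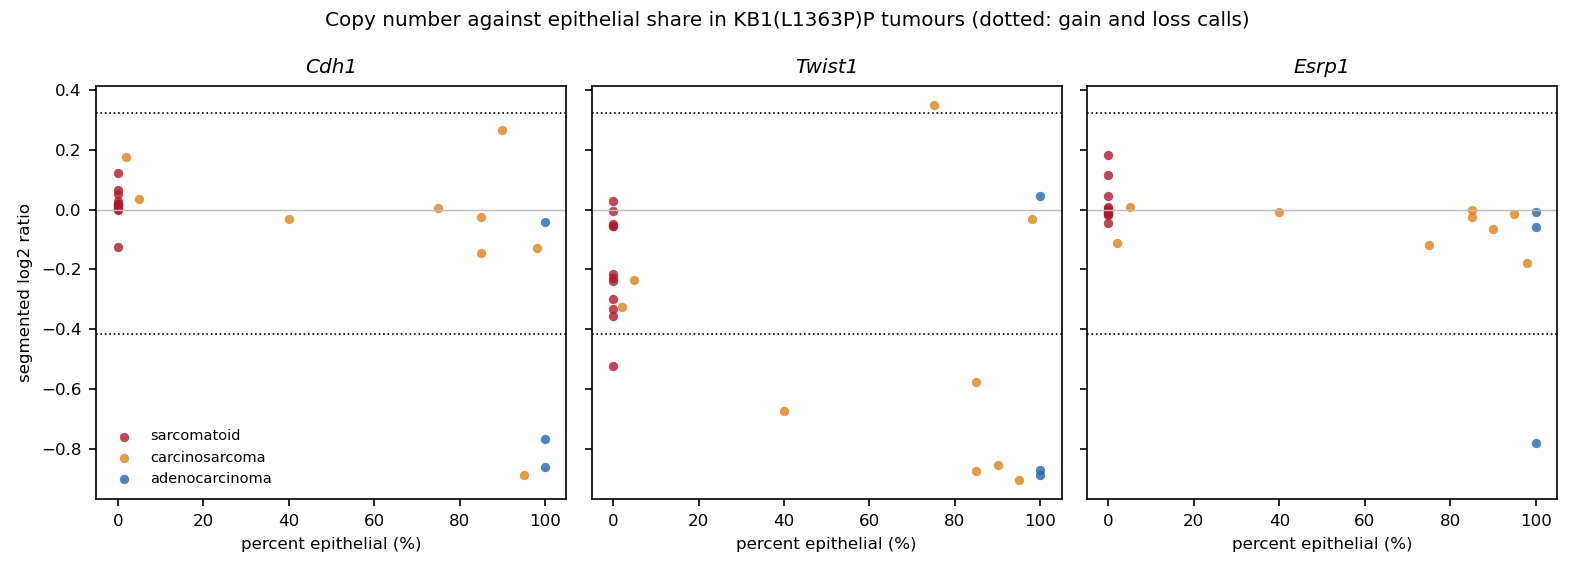
Segment value (log2, y axis) of Cdh1, Twist1 and Esrp1 against the percentage of epithelial cells (x axis) in the 24 KB1(L1363P)P tumours, marked by histology. Sarcomatoid tumours all lie at 0% and adenocarcinomas at 100%, and the loss of Cdh1 at -0.89 belongs to a carcinosarcoma at 95%.

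Among adenocarcinomas no member passed between genotypes. KB1P minus KP gave 0 of 10 calls, beside 1.03% of all genes, and the largest difference was that of Snai1, 0.28 (SE 0.15, limma adjusted p = 0.656). KB2P minus KP gave 0 of 10, beside 0.0529%, with Snai1 at 0.33 (SE 0.15, limma adjusted p = 0.686). KB1(L1363P)P minus KB1P gave 0 of 10, beside 0% of all genes (1815 genes with an unadjusted limma p under 0.05, and 0 by Fisher's exact test), and Zeb1 had the largest difference, -0.38 (SE 0.22, adjusted p = 0.668). The groups of 3 and 6 tumours limit these comparisons. All KB2P adenocarcinomas were in library series 3196 or 3499 and all KP adenocarcinomas in 5289 or 5490. Series and genotype therefore cannot be told apart in KB2P minus KP. Only 8 KB1P adenocarcinomas were in series 5289, and the others were in series, or without a series number, where no KP tumour was.

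Pairs of tumours with a shared number in their titles gave a view within that number, whose meaning the labels do not state. In the pair numbered 26, the sarcomatoid tumour had Cdh1 at 0.02 and the adenocarcinoma at -0.77, Zeb1 at 0.17 and -0.79, and Twist1 at -0.24 and 0.04. In the pair numbered 7, the sarcomatoid tumour had Cdh1 at 0.05 and the adenocarcinoma at -0.86, and Twist1 at -0.33 and -0.87. Zeb1 hardly differed in the pair numbered 7, at 0.03 and -0.01. Cdh1 was lower in the adenocarcinoma of both pairs, and Twist1 in 1 of them. The 2 carcinosarcomas numbered 54 had Twist1 at -0.85 and 0.35, a loss score and a gain score under a shared number.

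Further genes of the transition were read in the same comparisons, from 5 lists with 46 of 47 genes measured. Between KB1(L1363P)P sarcomatoid tumours and carcinosarcomas 2 of 46 rose and 0 fell, beside 5.21% of all genes that rose and 0% that fell: Tgfb3, a TGF-beta ligand, by 0.41 (SE 0.08, limma adjusted p = 0.00338), and the homeobox factor Gsc by 0.39 (SE 0.10, adjusted p = 0.0296). Both lie on chromosome 12, as does Twist1. The same 2 passed between KP sarcomatoid tumours and adenocarcinomas, Tgfb3 by 0.38 (SE 0.09, limma adjusted p = 0.0268) and Gsc by 0.36 (SE 0.09, adjusted p = 0.0305), beside 2.99% of all genes. Both counts were near the background. The smallest limma adjusted p over all genes was also 0.00338 in the first comparison and 0.0268 in the second, the values of Tgfb3. The chromosome 12 median averaged -0.20 in sarcomatoid tumours and -0.58 in adenocarcinomas of KP. The median over the 46 genes was 0.03 in KB1(L1363P)P and 0.02 in KP, against 0.03 and 0.04 over all genes.

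Between KB1(L1363P)P sarcomatoid tumours and adenocarcinomas 19 of 46 listed genes rose and 0 fell, beside 35.4% of all genes that rose. They comprised 5 of 9 transcription factors, 5 of 8 TGF-beta genes, 4 of 15 genes of junctions and keratins, 1 of 6 epithelial regulators and 4 of 8 mesenchymal genes. The largest were the signal transducers Smad2 and Smad4 at 0.60 (adjusted p = 0.00114 and 0.00706), beside 5 chromosome 8 genes with the value of Cdh1, 0.58: Cdh11, Esrp2, Foxc2, Mmp2 and Snai3. The median over the 46 genes was 0.12, against 0.15 over all genes.

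With both genotypes pooled 8 of 46 rose and 2 fell in sarcomatoid tumours, close to the 14.6% and 4.35% of all genes that did. Tgfb3 rose by 0.41 (limma adjusted p = 3.06e-07) and Gsc by 0.37 (adjusted p = 3.98e-05), the 5 chromosome 8 genes by 0.23 (adjusted p = 0.0341 each) and Klf8, a Krüppel-like factor, by 0.20 (adjusted p = 0.0433). The ligand gene Tgfb2 fell by 0.12 (adjusted p = 0.0467) and the homeobox gene Prrx1 by 0.11 (adjusted p = 0.0341). Along the percentage of epithelial cells in carcinosarcomas 1 of 46 passed, beside 1.8% of all genes. This was Tgfb3, which fell by 0.55 per 100 points (SE 0.11, limma adjusted p = 0.0437). Over all KB1(L1363P)P tumours 9 fell with that percentage and 1 rose, Tgfb2 by 0.18 (adjusted p = 0.0313), beside 13.6% of all genes that fell and 1.46% that rose. The largest of the 9 were Tgfb3 at -0.55 (adjusted p = 2.33e-06), Gsc at -0.46 (adjusted p = 0.00471) and Smad4 at -0.38 (adjusted p = 0.0372).

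None of the 46 passed in the difference between the genotypes (7215 of all genes at an unadjusted p under 0.05) or between adenocarcinomas of different genotypes. The smallest p-values there were those of Gsc at 0.41 and Fn1, which encodes fibronectin, at 0.40 in KB1P minus KP, Gsc at 0.51 and Tcf4 at -0.31 in KB2P minus KP, and Smad4 and Smad2 at -0.37 in KB1(L1363P)P minus KB1P. Their limma adjusted p-values ranged from 0.441 to 0.690.

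The segment values of the 10 genes were weakly correlated in most pairs on different chromosomes. Over the 98 tumours, which differ in genotype and in the size of all changes, Pearson's r between members on different chromosomes ran from -0.18 to 0.42, with Cdh2 and Zeb2 the highest pair. On shared chromosomes Cdh2 and Zeb1 had r = 0.63, Zeb2 and Vim 0.48, Snai1 and Vim 0.29, and Snai1 and Zeb2 0.28. The last 2 pairs lay below Cdh2 and Zeb2. The gene on another chromosome with the most similar profile had r = 0.49 for Cdh1 and Cdh3 (Gm10709 on chromosome 9), 0.62 for Snai1 (4930486I03Rik on chromosome 1), 0.58 for Zeb1 (Gm5776 on chromosome 7) and 0.53 for Cdh2 (Mir7224 on chromosome 2) and Vim (Baiap2 on chromosome 11). It had r = 0.51 for Zeb2 (Gm45417 on chromosome 7), 0.50 for Esrp1 (Gm32123 on chromosome 14), 0.42 for Snai2 (Fhitos on chromosome 14) and 0.40 for Twist1 (Gpr20 on chromosome 15). Each r is the highest over all placed genes on other chromosomes. Except for Vim the named gene was tied with others, from 2 genes in all for Cdh2 and Zeb1 to 18 for Zeb2.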

How the data were processed

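Low-coverage sequencing of tumour and spleen DNA (98 and 3 samples) used single reads of 50 bases, per the labels' protocols. The submitters' processing notes name cutadapt 2.5, BWA 0.7.17, SAMtools 1.10, Picard and mm10, without their roles. The protocol describes counts in 20-kb bins corrected for GC content and mappability, and names hg19 there. How segments were drawn, what the ratios refer to and how bins became genes is not given in the sources used here. For each gene the authors deposited 3 values: its log2 ratio, the same after segmentation, and a whole-number copy score. Turning the segment value into a linear ratio, doubling and rounding it gave the score in 99.99% of cells. Read depth per sample is unknown, so noise was taken from neighbouring genes, and no counting interval can be given.

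Segment values of 43513 genes were tested with limma 3.58.1 (R 4.3.3; lmFit, eBayes, two-sided, Benjamini-Hochberg over all genes, called at an adjusted p under 0.05) in the tumours of each comparison. Neighbouring genes share segments, so gene counts are not independent. The amplitude was compared by exact permutation over tumours and adjusted over 3 comparisons (SciPy 1.17.1, pandas 2.3.3, Python 3.11.15). Positions came from RefSeq GRCm38.p6, 32661 genes by symbol, 30 by synonym and 10822 without one. The scripts were tested on simulated data. All 10 members are named. Of the further genes, those called were named, up to 8 with the largest difference, otherwise the 2 genes of lowest p, besides the most similar gene on another chromosome and Brca1, Brca2 and Trp53. The members and lists were chosen with earlier results of these data known. From the lists, 1 gene is not reported here and was left out of their counts and medians. Alternatives were unsegmented ratios, centring, division by SD, subtraction of the chromosome median, 1 fit for all tumours, weights per group, library series as a block or series 5289 alone, a replicate block, Fisher's exact test, fewer gene rows, other thresholds, label exclusions and leaving out single tumours. Leaving out KB1(L1363P)P sarcomatoid tumours or carcinosarcomas, or KP sarcomatoid tumours or adenocarcinomas, was added after the data were seen. Title numbers are shared by 3 pairs of KB1(L1363P)P tumours, and the labels do not say that they mark an animal.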

Additional observations from a re-analysis of the deposited data

Results flagged for a closer look

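Of 30 combinations of a gene and a group of 4 to 10 tumours, 8 had a tumour far from the others. The rule was its gap to the nearest value relative to the whole range. By chance it flags about 1 in 20 groups of normally distributed values. Segment values need not be so distributed, so 8 of 30 is no measure of an excess. As Cdh1 and Cdh3, and in KP Cdh2 and Zeb1, share their values, they come from fewer events. Cdh1 and Cdh3 had -0.89 in KB1(L1363P)P carcinosarcoma replicate 6, where the nearest value was -0.15. Cdh1 and Cdh3 had -0.78 in KP adenocarcinoma replicate 5, where the nearest was -0.20. Cdh2 and Zeb1 had -0.65 in KP adenocarcinoma replicate 3, where the nearest was -0.02. Snai2 had -0.10 in KP sarcomatoid replicate 2, where the nearest was -0.04, a shift too small for a scored loss. Twist1 had 1.59 in KP adenocarcinoma replicate 6, where the nearest was -0.22.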

How the results depend on the processing

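Neighbouring genes often share a segment, 5 of the calls rest on 3 KB1(L1363P)P adenocarcinomas, and the unknown share of tumour DNA limits every level. Of the differences of the 10 genes under other settings, 2176 kept their side of the threshold. These kept their direction as well, or stayed within 1 SE of the main value. Another 62 moved further without a call, 76 lost the call, 23 gained it and 3 reversed. The 3 reversals were in KB1(L1363P)P sarcomatoid minus adenocarcinoma with the chromosome median subtracted: Cdh2 -0.066, Esrp1 -0.063 and Zeb1 -0.068. The cause of the changes below was not tested. In sarcomatoid minus carcinosarcoma in KB1(L1363P)P (1 of 10 genes called) the count was 0 with unsegmented ratios, SD scaling, the chromosome median subtracted, all tumours in 1 fit, series 5289 only, 1 row per distinct profile and Fisher's exact test. In sarcomatoid minus adenocarcinoma in KB1(L1363P)P (5 called) it was 2 with unsegmented ratios and SD scaling, 1 with the chromosome median subtracted (Snai1, at -0.16) and 0 with 1 fit, array weights and Fisher's exact test. In sarcomatoid minus other histology in KP and KB1(L1363P)P (3 called) it was 1 with unsegmented ratios and array weights, and 0 with centring, the chromosome median subtracted, 1 fit and series 5289 only. The histology difference in KB1(L1363P)P minus that in KP (0 called) gave 1 with the chromosome median subtracted (Snai1, at -0.16). The percent epithelial slope in KB1(L1363P)P carcinosarcomas (0 called) gave 3 with centring and with SD scaling, and the slope in all KB1(L1363P)P tumours (2 called) gave 0 with the chromosome median subtracted and with 1 row per distinct profile. Leaving out single tumours gave counts of 0 to 1, 1 to 5, 0 to 4 and 0 to 2 in the comparisons with 1, 5, 3 and 2 calls, and 0 in the others. The title number as a replicate block (correlation 0.147 in KB1(L1363P)P, 0.0803 with KP) gave 1, 5 and 4 in the comparisons with 1, 5 and 3 calls, the addition being Esrp1 (adjusted p = 0.0497).

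Genes called over all 43513, in the order sarcomatoid minus carcinosarcoma, sarcomatoid minus adenocarcinoma, the same in KP, both genotypes pooled, the difference between genotypes, the slopes in carcinosarcomas and in all tumours, and KB1P minus KP, KB2P minus KP and KB1(L1363P)P minus KB1P, were 2268, with 0 to 2403 over settings and 739 to 2413 without single tumours; 15913, 0 to 15802 and 6954 to 15791; 1300, 0 to 1299 and 0 to 1304; 8248, 25 to 12505 and 1846 to 11969; 887, 0 to 1691 and 509 to 4643; 782, 0 to 3870 and 0 to 1230; 6561, 24 to 12134 and 2527 to 5316; 450, 0 to 817 and 0 to 455; 23, 0 to 66 and 3 to 27; and 0, 0 to 384 and 0 to 199. By SD in place of mean size, the amplitude was lower in KB1(L1363P)P sarcomatoid tumours than in carcinosarcomas (difference -0.0606, exact permutation adjusted p = 0.0384). Altered combinations of gene and tumour numbered 244 by score, 347 beyond 0.2 and 468 beyond 0.1 in size.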
